A study of Mus musculus with 9 samples.

Results

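Slc5a5, Slc26a4, Slc26a7, Kcnq1 and Kcne2 are the 5 genes described here, of 52636 in the deposited table. They were chosen by name as the iodide transporters of the thyroid follicle and the potassium channel pair that accompanies iodide uptake. Each gene was followed over every cell label and over the 3 antibody groups. The cells came from thyroids of male C57BL/6 mice, 10 to 12 weeks old per the series' design and 10 to 14 weeks per the treatment protocol, taken 7 days after 1 intraperitoneal injection. Control mice (RW) received an antibody against ragweed at 40 mg/kg. Ligand blockade (aJ1aJ2) used antibodies against Jag1 and Jag2, each at 20 mg/kg, and receptor blockade (aN1aN2) used antibodies against Notch1 at 5 mg/kg and Notch2 at 10 mg/kg. Each group has 3 samples, and each sample pooled the thyroids of 6 mice. The antibodies reached the whole animal, so the blockade was not limited to thyroid cells.

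Thyroid follicles make hormone by moving iodide from blood to the follicle lumen. Slc5a5, the sodium iodide symporter, sits on the basolateral membrane of the thyrocyte and takes up iodide together with sodium, a step driven by the sodium gradient that the sodium pump maintains. Slc26a4 (pendrin) and Slc26a7 are anion transporters of the same family, and loss of either is known to cause thyroid hormone deficiency in people. Kcnq1 is the pore subunit of a potassium channel and Kcne2 its accessory subunit. Together they form a basolateral channel that is known to support iodide uptake in mice.

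On GRCm38 (GENCODE M21), Slc5a5 lies at chr8:70882889-70892757 and Slc26a4 at chr12:31519827-31559969, both on the minus strand. Slc26a7 lies at chr4:14502430-14621805, also on the minus strand, and Kcne2 at chr16:92292389-92298129 on the plus strand. No other annotated gene overlaps any of these 4. Kcnq1, at chr7:143106362-143427042 on the plus strand, is overlapped by 12 other annotated genes, 8 of them on its own strand. One of those on the other strand is Kcnq1ot1, its antisense RNA (chr7:143203458-143296549). Counting of the overlapping models is not described in the sources used here, so Kcnq1 counts are less certain than the others.

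The promoters of the symporter and of pendrin are shown because the first was the member with the largest change after receptor blockade and the second was nearly undetected. Each line is the 250 bases before the RefSeq start (GRCm38.p6), 5′ to 3′ on the gene's strand, with capitals at the motifs found.
Slc5a5, chr8:70892758-70893007, minus strand: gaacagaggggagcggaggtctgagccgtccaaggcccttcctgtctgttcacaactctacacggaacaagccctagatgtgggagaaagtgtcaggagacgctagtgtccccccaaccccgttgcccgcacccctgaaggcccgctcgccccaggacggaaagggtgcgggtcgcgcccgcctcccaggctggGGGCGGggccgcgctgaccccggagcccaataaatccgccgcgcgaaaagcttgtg
Slc26a4, chr12:31559985-31560234, minus strand: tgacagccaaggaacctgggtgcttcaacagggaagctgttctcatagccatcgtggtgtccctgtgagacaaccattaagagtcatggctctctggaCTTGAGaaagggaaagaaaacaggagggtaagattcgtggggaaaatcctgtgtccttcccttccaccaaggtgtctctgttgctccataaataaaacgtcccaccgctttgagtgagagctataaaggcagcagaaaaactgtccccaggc
On both strands, 4 motifs were searched: TGGGAA (the core bound by the Notch partner Rbpj), CTCAAG (an Nkx2-1 core), TGACG (a core of the cyclic AMP response element) and GGGCGG (a GC box). The Slc5a5 window held 1 GC box, 56 to 51 bases before the start, and none of the other letters. The Slc26a4 window held 1 Nkx2-1 core, read as CTTGAG, 152 to 147 bases before the start. Of 32851 RefSeq promoters of the same length, 21.6% held the Rbpj core, 13.3% the Nkx2-1 core, 17.8% the cyclic AMP core and 32.7% the GC box. A match here describes letters, not binding. Kcne2 has 2 RefSeq starts on GRCm38.p6, whose windows are not printed. The first window held 1 Nkx2-1 core, 2 cyclic AMP cores and 1 GC box, and the second none of these letters. The promoters of Slc26a7 and Kcnq1 are named only.

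The table held 10186 cells in 16 deposited labels and 63121420 unique molecular identifiers (UMIs, each standing for 1 captured RNA molecule). Per sample, 583 to 1805 cells and 3013324 to 11880793 UMIs were present, and 15 of 10171 distinct barcodes occurred in more than 1 library. The label Th1 held 1169 cells, 62 to 193 per sample, and all 11 thyrocyte markers examined were detected there in every group. Th1 cells were shallower after receptor blockade: the median cell had 5737 to 7558 UMIs in aN1aN2 samples, 9968 to 15314 in aJ1aJ2 samples and 12535 to 22558 in RW samples. Sample numbers in the titles fall into 3 ranges, called A, B and C here. RW 3 and aJ1aJ2 1 are in range A, the other RW and aJ1aJ2 samples in range B, and the aN1aN2 samples in range C. Receptor blockade and range C therefore cannot be told apart.

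Over the labels, 2 members were thyrocyte genes, 1 was mainly an endothelial gene, and 2 were at or near 0. Th1 held 94.8% of the 3739 Slc5a5 UMIs and 95.6% of the 14062 Slc26a7 UMIs. With Th2 and Th3, labels with a median of 1014 and 987 UMIs per cell, these shares came to 98.7% and 99.0%. With all groups pooled, Slc5a5 stood at 151 CPM (UMIs per 1000000 UMIs of the label) in Th1, 91.1 CPM in Th2 and 86.5 CPM in Th3. That order did not hold in both blockade groups. Th1, Th2 and Th3 were at 236, 233 and 141 CPM in RW and at 104, 58.1 and 61.5 CPM in aJ1aJ2. In aN1aN2 they were at 15.7, 16.8 and 12.2 CPM. The Th2 values rested on 11, 4 and 1 Slc5a5 UMIs in RW, aJ1aJ2 and aN1aN2. Over the Th1 sums Slc5a5 ran from 9.17 to 283 CPM per sample, and over Th3 sums from 0 to 191 CPM, so Th1 and Th3 overlapped. In 12 of the other 13 labels Slc5a5 was at 0 to 1.58 CPM. Free thyrocyte RNA can reach cells of other labels in droplet data, and Tg, the thyroglobulin precursor of the hormone, is used here as its tracer. Outside Th1 to Th3, Tg was seen in 55.7% (Eryth2) to 84.6% (F) of the cells of a label. In EC1 there were 1.34 Slc5a5 UMIs per 1000 Tg UMIs, against 1.64 in Th1, a ratio of 0.816. Over these 12 labels that ratio, with all groups pooled, ran from 0 in M, P and SM to 0.996 in T2, on 0 to 13 Slc5a5 UMIs per label. Within RW alone, Th1 held 2.63 Slc5a5 UMIs per 1000 Tg UMIs. The 12 labels there ran from 0 in M, P and SM to 7.19 in EC2, the latter on 2 Slc5a5 UMIs. The EC1 value rested on 13 Slc5a5 UMIs: 0.811% of EC1 cells had a UMI, at a median of 3994 UMIs per cell, against 46.5% of Th1 cells at a median of 12553.

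Slc26a7, with all groups pooled, stood at 574 CPM in Th1, 421 CPM in Th2 and 265 CPM in Th3. Unlike for Slc5a5, that order held in each group. RW stood at 633, 615 and 346 CPM, aJ1aJ2 at 610, 363 and 242 CPM, and aN1aN2 at 353, 335 and 131 CPM. The Th2 values rested on 29, 25 and 20 UMIs. Among the other 13 labels Slc26a7 lay between 0 in SM and 14.2 CPM in EC4. Relative to Tg and with all groups pooled, Slc26a7 in these 13 labels was between 0 and 1.30 times its ratio in Th1. The part of free thyrocyte RNA in these counts was not tested.

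**Figure D1:**
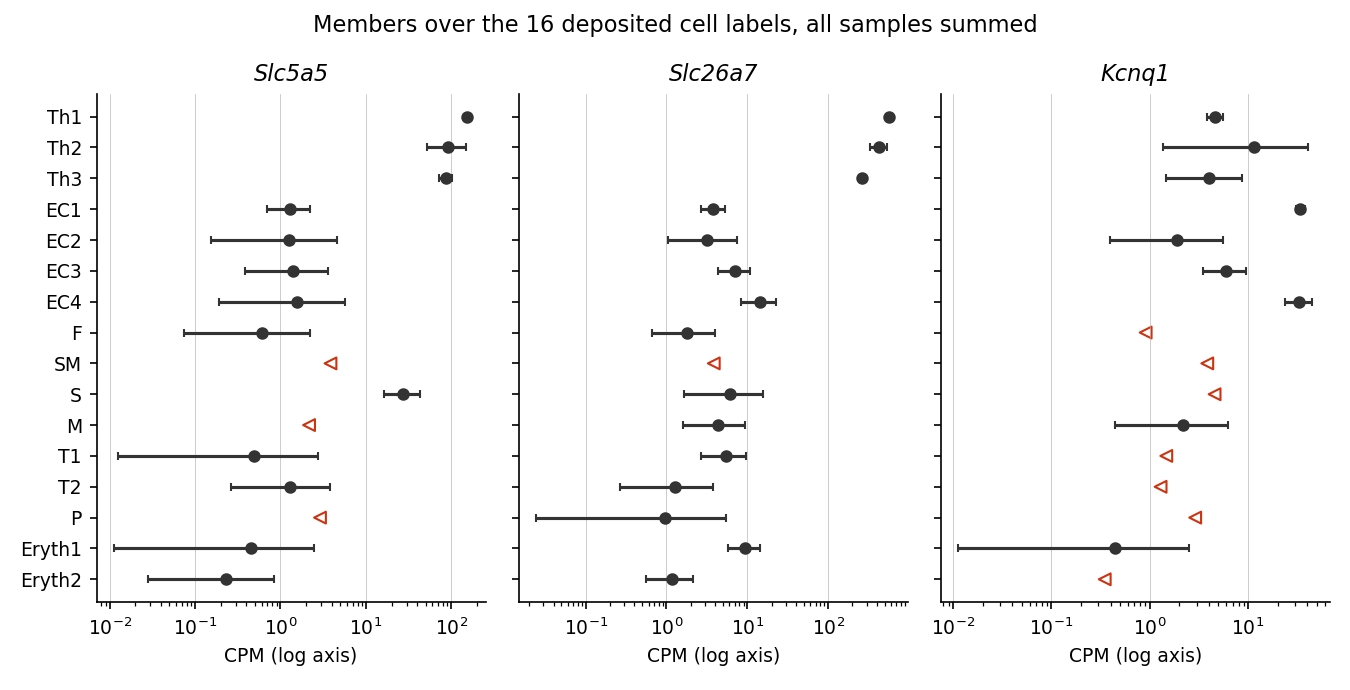
Level of Slc5a5, Slc26a7 and Kcnq1 (CPM, log axis) in each of the 16 labels, all samples summed. Points carry 95% Poisson intervals, which cover counting error only, and open triangles mark labels with no UMI at the limit that 3 counts would give. Slc5a5 and Slc26a7 peak in Th1 to Th3, whereas Kcnq1 peaks in EC1 at 34.0 CPM and EC4 at 33.1 CPM.

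The label S was the exception for Slc5a5. It held 18 Slc5a5 UMIs (27.4 CPM), or 35.4 per 1000 Tg UMIs, 21.5 times the Th1 ratio with all groups pooled. Of these, 17 came from RW 1, in 6 of its 8 S cells with over 10000 UMIs. Per 1000 Tg UMIs, these 8 cells held 459 Slc5a5 UMIs and Th1 of RW 1 held 3.10. Those 8 cells also held 856 UMIs of Vip, a neuropeptide, 53 to 150 in each cell, together with 1080 UMIs of Pcsk1n, an inhibitor of a prohormone convertase, and 71 UMIs of the choline transporter Slc5a7. They held 37 Tg UMIs and no Slc26a7 UMI. The 20 shallower S cells of RW 1 had no UMI of Slc5a5 or Vip. The 4 S cells over 10000 UMIs in other samples (13436 to 16553 UMIs) also had none of either. They were shallower than the 6 cells with Slc5a5 (18244 to 33771), but not than all of the 8 cells with Vip (10535 to 33771). This subset was chosen after its values were seen, comes from 1 sample, and has no replicate.

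Kcnq1 had another distribution. Of its 521 UMIs, 64.9% were in EC1 and 20.9% in Th1. EC1 stood at 34.0 CPM and EC4 at 33.1 CPM, both with endothelial markers such as Cdh5 and Kdr at over 10000 CPM in sum. Next were Th2 at 11.4 CPM, on 2 UMIs (1.38 to 41.1 CPM, 95% Poisson interval), EC3 at 5.98 CPM (3.49 to 9.58) and Th1 at 4.65 CPM (3.82 to 5.61), whose intervals overlapped. The EC1 and EC4 intervals overlapped (30.4 to 37.8 CPM and 23.8 to 44.7 CPM). Per sample, EC1 ran from 27.1 to 43.6 CPM and Th1 from 2.46 to 8.76 CPM, with no overlap. Relative to Tg, EC1 held 689 times the Kcnq1 of Th1. No Kcnq1 UMI was seen in F, SM, T1, T2, P, S or Eryth2. The antisense RNA had its own pattern: Kcnq1ot1 had 935 UMIs in F and 947 in T2, where Kcnq1 had 0.

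Some Kcnq1 in Th1 lay in cells that also held endothelial RNA. The 97 Th1 cells with a Kcnq1 UMI were deep, with a median of 39685 UMIs against 12059 in the other 1072, and 57.7% of them held an endothelial marker UMI against 24.3%. In the 317 Th1 cells with an endothelial marker UMI, Kcnq1 was at 6.06 CPM (95% Poisson interval 4.70 to 7.70). In the 852 Th1 cells without one it was still at 3.39 CPM (2.44 to 4.58). Per 1000 endothelial marker UMIs, Th1 held 6.32 to 59.7 Kcnq1 UMIs over the 9 samples (median 12.9), and EC1 held 2.39 to 3.59 (median 2.99). The Th1 ratio was the higher in 9 of 9 samples, on 4 to 29 Kcnq1 UMIs per sample in Th1. The part of endothelial RNA and of doublets, which were not called here, in the Th1 counts was not tested.

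**Figure D2:**
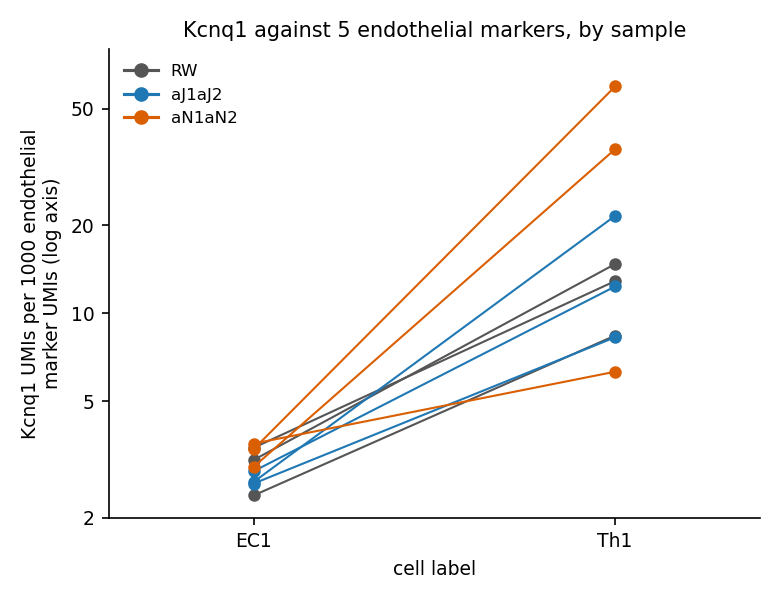
Kcnq1 UMIs per 1000 UMIs of 5 endothelial markers (Pecam1, Cdh5, Kdr, Emcn, Plvap) in EC1 and in Th1, log axis, with 1 line per sample. Every line rises from EC1 (2.39 to 3.59) to Th1 (6.32 to 59.7). The spread in Th1 comes with low counts, 4 to 29 Kcnq1 UMIs per sample.

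Slc26a4 and Kcne2 were near the limit of detection. Slc26a4 had 7 UMIs in the whole table, in 7 Th1 cells of 11433 to 64637 UMIs, 4 of them from RW 1 and 3 from RW 3. Each of these cells also held Slc5a5 and Slc26a7. RW Th1 cells thus stood at 0.623 CPM (95% Poisson interval 0.250 to 1.28), whereas no UMI was found in aJ1aJ2 (limit 0.381 CPM from 3 counts) or aN1aN2 (limit 0.694 CPM). The aN1aN2 limit lies above the RW level, so a loss there was not detectable at this depth. The aJ1aJ2 limit lies below it, but the aJ1aJ2 95% Poisson interval, up to 0.468 CPM, overlapped that of RW. RW 2 also had 0 UMIs. A loss was therefore not shown in aJ1aJ2 either. Kcne2 had no UMI in any of the 10186 cells, which allows a level of up to 0.0475 CPM and a share of up to 0.0295% of cells with a UMI over all labels pooled. In Th1 alone the limits were wider, at 0.128 CPM and 0.257% of cells. Counting covers RNA 3′ ends, so a transcript end missing from the annotation would not be counted.

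In thyrocytes, receptor blockade came with far less Slc5a5 and moderately less Slc26a7, and no difference in Kcnq1 was detected. Values below are CPM of the Th1 sums, scaled to library totals after TMM normalization. Slc5a5 stood at 283, 252 and 196 CPM in RW 1, 2 and 3 (mean 244 ± 44.3, SD, n = 3), at 183, 87.3 and 62.4 CPM in aJ1aJ2 1, 3 and 4 (111 ± 63.6), and at 18.7, 15.8 and 9.67 CPM in aN1aN2 1, 2 and 3 (14.7 ± 4.59). The 3 groups did not overlap, and the lowest RW sample lay close to the highest aJ1aJ2 sample, both from range A. Slc26a7 stood at 713, 603 and 586 CPM in RW (634 ± 69.1), at 670, 582 and 619 CPM in aJ1aJ2 (624 ± 44.4), and at 333, 356 and 400 CPM in aN1aN2 (363 ± 34.4). All aN1aN2 samples were below all others, and RW and aJ1aJ2 overlapped. Kcnq1 stood at 6.43, 6.07 and 3.12 CPM in RW, at 4.30, 3.96 and 3.50 CPM in aJ1aJ2, and at 8.78, 2.42 and 4.84 CPM in aN1aN2. All groups overlapped, on 4 to 29 UMIs per sample. In such sums, fewer cells expressing a gene and less RNA in each cell cannot be told apart.

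**Figure D3:**
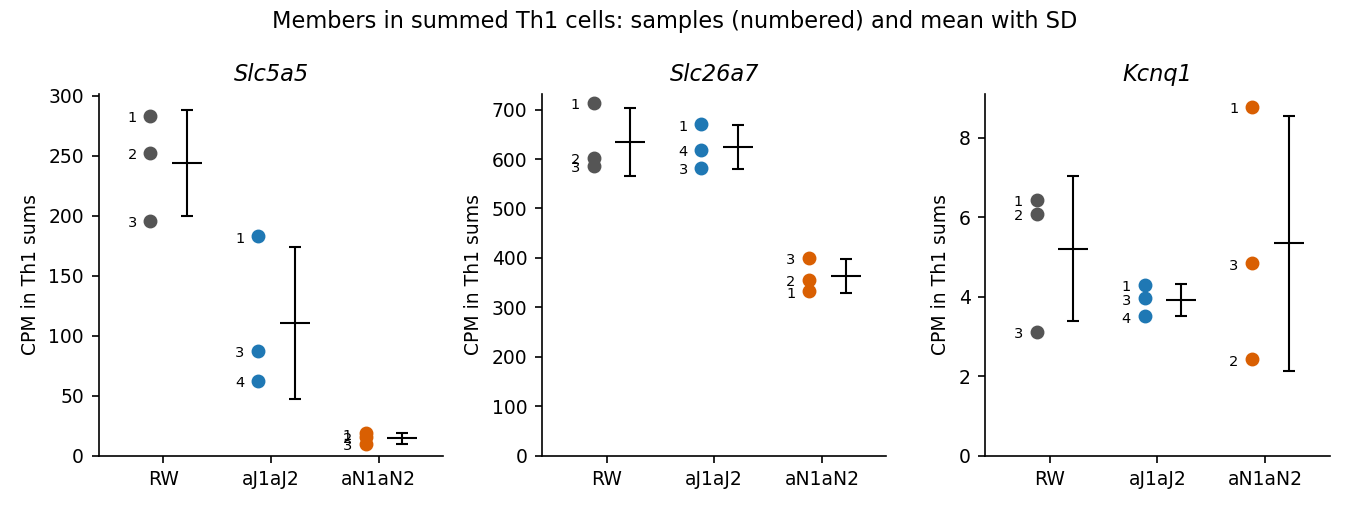
CPM of Slc5a5, Slc26a7 and Kcnq1 in summed Th1 cells, by group. Points are the 3 samples with their replicate numbers, and bars are the mean with SD. Slc5a5 falls from a mean of 244 CPM in RW to 14.7 CPM in aN1aN2, Slc26a7 from 634 to 363 CPM, and the Kcnq1 groups overlap.

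Sums were tested by quasi-likelihood in edgeR, with p adjusted over 10627 genes (Benjamini-Hochberg) and genes called at an adjusted p under 0.05. Of the 5 members 3 passed the filter on low counts. Kcnq1 passed at the minimum of 3 samples (2 RW, 0 aJ1aJ2 and 1 aN1aN2), and Slc5a5 and Slc26a7 passed in all 9. In aN1aN2 against RW, 2 of the 3 tested members were called, both lower, where 34.4% of all genes tested were called and 17.3% were called lower. Slc5a5 fell by 3.96 on the log2 scale (SE 0.36, 95% interval -4.72 to -3.19, edgeR adjusted p = 9.95e-07), a 15.5-fold lower level. Slc26a7 fell by 0.81 (SE 0.11, edgeR adjusted p = 5.46e-05). Kcnq1 differed by 0.15 (SE 0.45, 95% interval -0.82 to 1.12, edgeR adjusted p = 0.833), an interval that holds changes in either direction. Both calls were made under all 16 alternatives tried, with Slc5a5 between -4.23 and -3.48 and Slc26a7 between -0.94 and -0.71. Tg did not follow, at 91739 ± 3212 CPM in RW and 104311 ± 11829 CPM in aN1aN2 (SD, n = 3).

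Between the blockades, aN1aN2 samples were lower than aJ1aJ2 samples for the same 2 genes, where 22.3% of genes were called and 11.5% were called lower. Slc5a5 fell by 2.81 (SE 0.37, edgeR adjusted p = 8.20e-05) and Slc26a7 by 0.79 (SE 0.11, edgeR adjusted p = 0.000154). Kcnq1 differed by 0.48 (SE 0.49, edgeR adjusted p = 0.532). The aN1aN2 samples enter both comparisons.

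After ligand blockade none of the 3 tested members was called, where 0.612% of all genes were called (65, and 1310 at an unadjusted p under 0.05) and 0.226% were called lower. DESeq2 called neither Slc5a5 nor Slc26a7 and gave Kcnq1 no adjusted p. The Slc5a5 estimate was -1.15 (SE 0.27, 95% interval -1.72 to -0.58, edgeR adjusted p = 0.0721), just short of the threshold. The estimates for Slc26a7 (-0.03, 95% interval -0.26 to 0.20, edgeR adjusted p = 0.964) and Kcnq1 (-0.33, 95% interval -1.25 to 0.58, edgeR adjusted p = 0.805) were close to or spanned 0. The Slc5a5 call depended on the samples and the fit. Within range B alone, with RW 1, RW 2, aJ1aJ2 3 and aJ1aJ2 4, the estimate was -1.80 (edgeR adjusted p = 1.79e-06), and with the range as a term it was -1.21 (edgeR adjusted p = 0.0482). Range A holds 1 sample of each group, at 196 CPM in RW 3 and 183 CPM in aJ1aJ2 1, and has no replicate. Without aJ1aJ2 1 the estimate was -1.67 (edgeR adjusted p = 0.000153), and without RW 3 it was -1.29 (edgeR adjusted p = 0.0493). With no filter on low counts the adjusted p was 1.65e-15, the lowest of the alternatives, at an estimate of -1.15, and in cells with no endothelial marker UMI it was 0.00818. Without aJ1aJ2 3 the adjusted p was 0.353, the highest edgeR value over the 16 alternatives, and DESeq2 gave 0.295. All estimates were below 0.

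**Figure D4:**
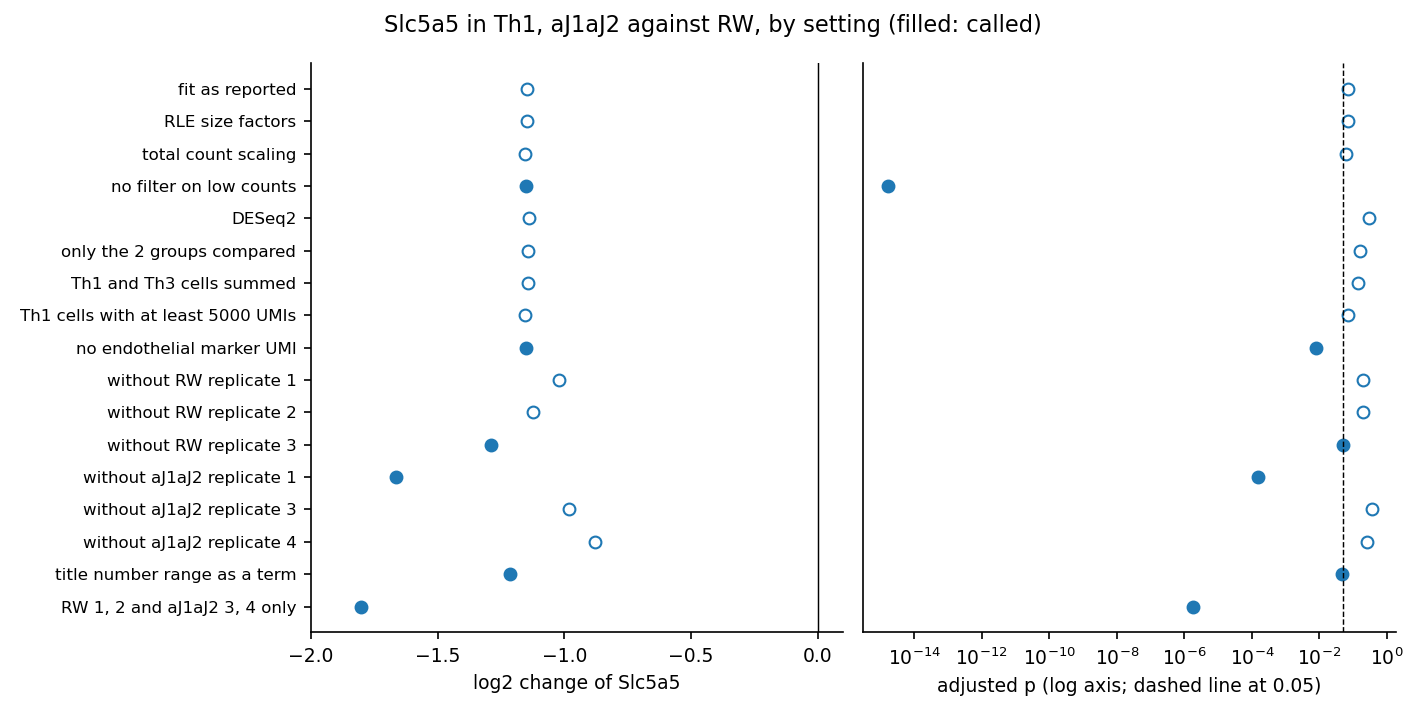
Slc5a5 in Th1, aJ1aJ2 against RW, under the fit as reported and 16 alternatives: log2 change on the left and adjusted p (log axis) on the right, with filled points for called values. The estimates all lie below 0, between -1.80 and -0.88, while the adjusted p crosses 0.05 in 6 of the 16 alternatives.

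At even depth, Slc5a5 was detected in a smaller share of Th1 cells in each aJ1aJ2 and aN1aN2 sample than in any RW sample. Depth was evened by computing each cell's chance of at least 1 UMI after thinning to 5000 UMIs, leaving out shallower cells (5 to 7 per RW sample, 1 to 19 per aJ1aJ2 sample and 22 to 57 per aN1aN2 sample). The share of Th1 cells with Slc5a5 was then 54.3%, 47.3% and 48.3% in RW 1, 2 and 3, 42.9%, 27.3% and 19.9% in aJ1aJ2 1, 3 and 4, and 6.66%, 6.49% and 6.25% in aN1aN2 1, 2 and 3. No group overlapped another. With 3 samples against 3 the exact permutation test gave p = 0.1 (two-sided) for each of the 3 comparisons, the smallest it can give. The Slc26a7 share was 88.4% to 92.2% in RW, 90.3% to 92.6% in aJ1aJ2 and 73.7% to 87.0% in aN1aN2. The aN1aN2 samples were below the others (exact permutation p = 0.1, two-sided), and RW and aJ1aJ2 overlapped (p = 0.7). The size of the Slc26a7 difference depended on the depth: aN1aN2 minus RW was -11.7 percentage points at 5000 UMIs, -19.8 at 2000 and -6.63 at 8000. At 8000 UMIs aN1aN2 3, at 95.9% of 29 cells, lay above RW 3 (94.8%) and aJ1aJ2 1 (94.5%), and the exact permutation p was 0.2. For Kcnq1 the share was 0.937% to 3.78% over all 9 samples with overlapping groups. These are 9 comparisons in all. Without thinning, the aN1aN2 shares were 11.3% to 13.9% for Slc5a5, against 59.5% to 76.1% in RW. The unthinned aJ1aJ2 shares were 66.7%, 47.2% and 34.5% in aJ1aJ2 1, 3 and 4, so aJ1aJ2 1 lay above RW 2, and the exact permutation p for aJ1aJ2 against RW was 0.2 (two-sided).

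The ratio of the 2 transporters differed between samples. There were 39.7, 41.9 and 33.4 Slc5a5 UMIs per 100 Slc26a7 UMIs in RW 1, 2 and 3. The ratio was 27.3, 15 and 10.1 in aJ1aJ2 1, 3 and 4, and 5.61, 4.43 and 2.42 in aN1aN2 1, 2 and 3. The groups did not overlap. The ratio was not tested beyond the fits of each gene.

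Markers of other cells were present in Th1 at levels that varied between samples. The summed endothelial markers (5 of 5 detected in each group) were at 364 to 499 CPM in RW, 190 to 435 CPM in aJ1aJ2 and 76.8 to 390 CPM in aN1aN2. Parathyroid markers were at 10.0 to 48.5 CPM in RW (3 of 4 detected, Gcm2 at 0), 19.7 to 69.1 CPM in aJ1aJ2 and 125 to 294 CPM in aN1aN2 (4 of 4 in both). C cell markers were at 415 to 1090 CPM in RW (5 of 5 detected), 26.1 to 2619 CPM in aJ1aJ2 and 1000 to 1885 CPM in aN1aN2 (4 of 5 in both, Calcb at 0). The Schwann cell list (2 of 3 detected, Sox10 at 0) stood at 208 to 225, 147 to 183 and 66.3 to 74.5 CPM in RW, aJ1aJ2 and aN1aN2. Most of it was S100b (206, 153 and 64.5 CPM). In Th1 cells with no endothelial marker UMI the aN1aN2 difference from RW was -3.48 for Slc5a5 and -0.92 for Slc26a7, and in cells of at least 5000 UMIs it was -4.23 and -0.80. Parathyroid markers in aN1aN2 were above, and the Schwann cell list below, those of all other samples, whereas the endothelial and C cell ranges of the groups overlapped. The part of the parathyroid, C cell and S100b differences in these results was not tested.

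In other labels few member tests were possible. In Th3, the shallow label with 901 cells, Slc5a5 had 65, 16 and 15 UMIs in RW 1, 2 and 3, 6, 11 and 14 in aJ1aJ2 1, 3 and 4, and 3, 1 and 0 in aN1aN2 1, 2 and 3. The aN1aN2 difference from RW was -3.11 (SE 0.73, edgeR adjusted p = 0.0361), where 5.03% of 2087 genes tested were called. Slc5a5 passed the filter on low counts there (68.8 CPM in at least 3 samples) through all 3 RW samples and 1 aJ1aJ2 sample, with 0 of the aN1aN2 samples past it. A gene that enters the test through the group where it is high had to differ, so this call is a description and adds no support. Leaving out any 1 of RW 1, RW 2, RW 3, aN1aN2 2 and aN1aN2 3 ended the call, with edgeR adjusted p up to 0.158, and leaving out aN1aN2 1 did not. With a sample left out the estimate ranged from -4.63 to -2.68. No aJ1aJ2 sample was left out in this comparison. Markers of other cells also varied between samples in Th3. C cell markers stood at 36943 to 68049 CPM in RW (5 of 5 detected), 2614 to 20062 CPM in aJ1aJ2 (5 of 5) and 700 to 10485 CPM in aN1aN2 (4 of 5, Calcb at 0). Skeletal muscle markers (4 of 4 detected in each group) stood at 114 to 580 CPM, 108 to 51664 CPM and 44.1 to 93911 CPM. Adipocyte markers were at 0 in RW and reached 5749 CPM in aJ1aJ2 (3 of 3 detected) and 3849 CPM in aN1aN2 (2 of 3, Plin1 at 0). Their part in the Th3 results was not tested. Slc26a7 in Th3 differed by -0.96 (edgeR adjusted p = 0.187) and was not called. For aJ1aJ2 against RW in Th3, Slc5a5 differed by -0.96 (edgeR adjusted p = 0.998), where edgeR called 0 genes (74 at an unadjusted p under 0.05) and DESeq2 called 1. For aN1aN2 against aJ1aJ2 in Th3, Slc5a5 differed by -2.15 (edgeR adjusted p = 0.254), with 1.44% of genes called. That estimate ranged from -3.64 to -1.74 with a sample left out. In EC1, the main site of Kcnq1, its difference from RW was -0.31 in aJ1aJ2 (95% interval -0.71 to 0.09, edgeR adjusted p = 0.552, with 1.43% of genes called). In aN1aN2 it was -0.35 (95% interval -0.89 to 0.19, edgeR adjusted p = 0.409, with 17.8% of genes called), and between the blockades it was -0.04 (edgeR adjusted p = 0.973, with 13.5% of genes called). Slc5a5 in Th3 with receptor blockade was the only called value among all member tests outside Th1.

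The symporter runs on the sodium gradient, and 2 of 4 tested sodium pump genes fell after receptor blockade, with a median log2 change of -0.38 over the 4 against 0.02 over all genes tested. Of all 10627 genes tested in that comparison, 34.4% were called, 1814 of them higher and 1839 (17.3%) lower. Fxyd4, a small regulator of the pump, fell by 1.30 (SE 0.19, edgeR adjusted p = 8.38e-05), from 241 ± 50.8 to 101 ± 22.6 CPM (SD, n = 3). The beta subunit Atp1b3 fell by 0.54 (edgeR adjusted p = 0.00168). The beta subunit Atp1b1, at the highest level of the 4 (means of 1454 CPM in RW and 1336 CPM in aN1aN2), was not called (-0.12, edgeR adjusted p = 0.313). Fxyd5 was not called either (-0.21, edgeR adjusted p = 0.625). The Atp1b3 call was lost in Th1 cells with no endothelial marker UMI (edgeR adjusted p = 0.0680). In aJ1aJ2 none of the 4 was called by edgeR or DESeq2, and 0 were under 0.05 unadjusted.

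Other members of the transporter families went in different directions. Of 4 tested SLC5 genes 1 rose and 1 fell in aN1aN2 against RW, with a median of 0.41, where 34.4% of all genes were called. Slc5a3, a sodium-coupled inositol transporter, rose by 1.95 (SE 0.12, edgeR adjusted p = 2.77e-08), from 132 ± 18.9 to 514 ± 40.8 CPM (SD, n = 3). Slc5a9, a sugar transporter, fell by 1.32 (SE 0.41, edgeR adjusted p = 0.0215) on 13 UMIs in aN1aN2. It passed the filter on low counts (5.48 CPM in at least 3 samples) in all RW and aJ1aJ2 samples and 0 aN1aN2 samples, so it entered the test through the groups where it was high. The Slc5a9 call was lost with DESeq2 (adjusted p = 0.0626) and without any of RW 1, aN1aN2 1 and aN1aN2 3. Of 3 tested SLC26 genes Slc26a10 fell by 1.38 (SE 0.20, edgeR adjusted p = 0.000109), and the median was -0.07. That is 33.3% of the list, near the 34.4% over all genes.

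Of 4 other epithelial potassium channels tested, Kcnj15 rose by 0.97 (SE 0.11, edgeR adjusted p = 8.59e-06) and Kcnj16 fell by 0.50 (SE 0.12, edgeR adjusted p = 0.00491), with a median of -0.07 and 34.4% of all genes called. Both encode inwardly rectifying channel subunits. Of the other KCNQ and KCNE genes and the antisense RNA, 9 were found in the table and Kcnq1ot1 alone passed the filter. It fell by 1.03 (SE 0.24, edgeR adjusted p = 0.00387) while no change in Kcnq1 was detected.

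Chloride channels and other anion transport genes, listed without regard to direction of transport, mostly rose where they were called in aN1aN2. Of 17 tested, 7 were higher and 2 lower, with a median of 0.36 against 0.02 over all genes. That is 52.9% of the list, where 34.4% of all genes were called and 1814 of 10627 were called higher. DESeq2 called 5 of the 17. Of the 7 that rose, Lrrc8e and Ano10 each lost the call in 11 of 16 alternatives, with adjusted p up to 0.238 and 0.603, and Clcn5 in 6 of 16 (up to 0.0795); these 3 were named after their values were seen. Those with the largest changes were Clcn2 (1.67), Lrrc8a (1.15), Ano6 (0.78) and Slc12a2 (0.77). Lrrc8a, the required subunit of volume-regulated anion channels, went from 28.7 ± 2.59 to 65.0 ± 12.9 CPM (SD, n = 3, edgeR adjusted p = 4.78e-05). The chloride channel Clcn2 rested on 34 UMIs in RW and 43 in aN1aN2 (edgeR adjusted p = 0.00708), and its call was lost without aN1aN2 2 (edgeR adjusted p = 0.0629). Clcn2 passed the filter in all 3 aN1aN2 samples, 1 aJ1aJ2 sample and 0 RW samples, so it entered the test, and the count of 7, through the group where it was high. None of the 17 was called in aJ1aJ2 by edgeR or DESeq2, and 3 were under 0.05 unadjusted.

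Among 14 tested genes of iodide use and thyroid regulation, 7 fell and 2 rose in aN1aN2, with a median of -0.57. That is 64.3% of the list, where 34.4% of all genes were called and 17.3% were called lower, and DESeq2 called 8 of the 14. Dio1, a deiodinase that releases iodide from iodothyronines, fell by 1.61 (SE 0.14, edgeR adjusted p = 5.96e-07). The TSH receptor Tshr fell by 1.47 (edgeR adjusted p = 3.42e-05), the iodotyrosine deiodinase Iyd by 1.42 (edgeR adjusted p = 1.54e-07) and the transcription factor Foxe1 by 0.97 (edgeR adjusted p = 0.000512). The genes that rose were the transcription factors Pax8 (0.31, edgeR adjusted p = 0.0314) and Nkx2-1 (0.27, edgeR adjusted p = 0.0473), named after their values were seen. Their calls were lost in 7 and 14 of 16 alternatives, with adjusted p up to 0.202 and 0.226. Of the 7 that fell, Duoxa2, a maturation factor of the dual oxidase, lost its call in 5 of 16 (up to 0.106), and it too was named after its values were seen. In aJ1aJ2 1 of the 14 was called by edgeR, where 0.612% of all genes were, 2 were called by DESeq2, and 3 were under 0.05 unadjusted. Tshr fell by 0.93 (SE 0.17, edgeR adjusted p = 0.0235), from 97.6 ± 9.82 to 51.6 ± 16.5 CPM (SD, n = 3). The edgeR call of Tshr was lost in 5 of 16 alternatives, with adjusted p up to 0.180 without aJ1aJ2 3, and also without RW 1, RW 2 or aJ1aJ2 4 and with only the 2 groups in the fit. Against aJ1aJ2, aN1aN2 was lower for Iyd (-1.21), Dio1 (-1.07) and Foxe1 (-0.86). These 3 are 21.4% of the 14, near the 22.3% called over all genes. Among the other lists in that comparison, edgeR called Slc5a3 (1.72), Clcn2 (1.32), Lrrc8a (1.23), Kcnj15 (0.92), Slc12a2 (0.69) and Ano6 (0.54) higher. It called Kcnq1ot1 (-1.15), Fxyd4 (-1.13), Slc26a10 (-1.08), Kcnj16 (-0.42), Atp1b3 (-0.40) and Clcn4 (-0.39) lower. The calls of Clcn2, Kcnj16, Atp1b3 and Clcn4 were lost in 6, 6, 5 and 9 of 14 alternatives. Clcn2 passed the filter in 3 aN1aN2 samples and 1 aJ1aJ2 sample, so it entered this test too mainly through the group where it was high.

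**Figure D5:**
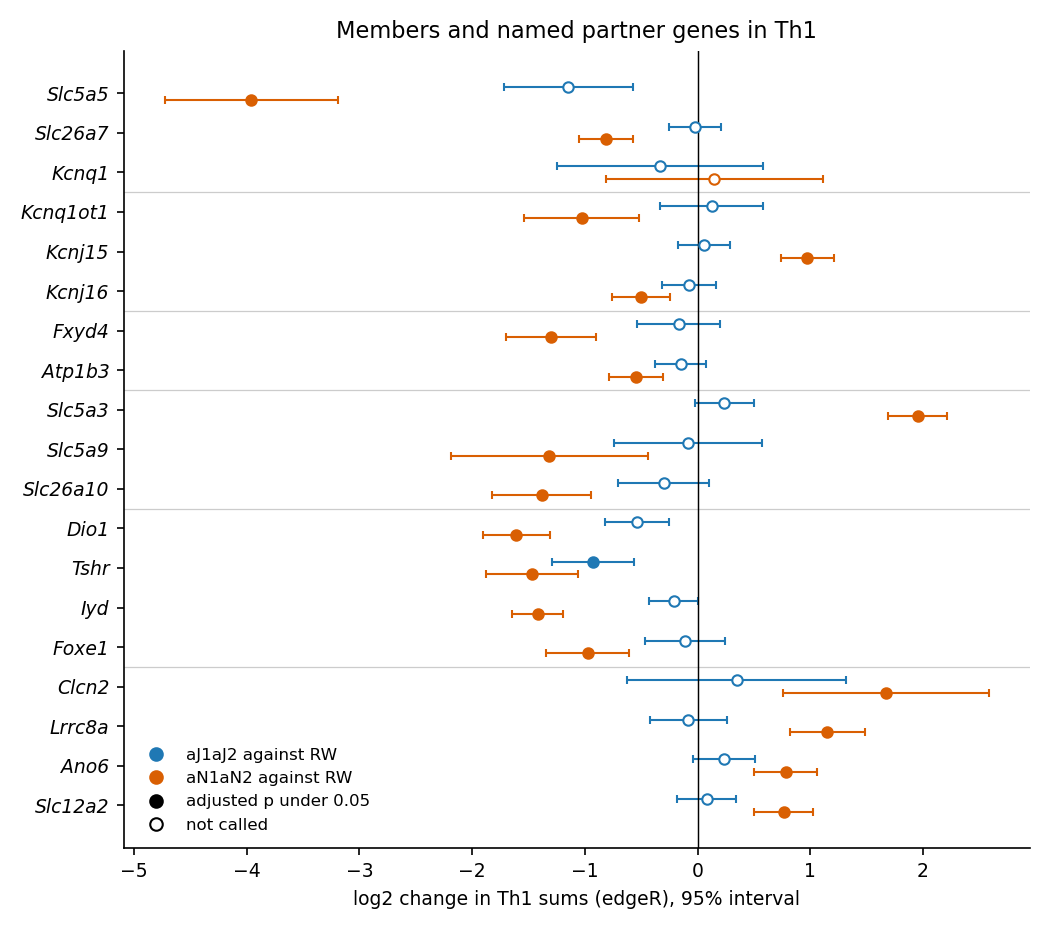
Log2 change in Th1 sums with 95% interval for the 3 tested members and for named partner genes, with aJ1aJ2 against RW in blue and aN1aN2 against RW in orange, filled where the adjusted p is under 0.05. The Slc5a5 change of -3.96 in aN1aN2 lies farther from 0 than that of any other gene drawn, and Slc5a3 (1.95) lies on the opposite side. Both comparisons use the same RW samples.

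Likeness of pattern was described over the 9 Th1 sums, which share the groups and their depth, among 6331 genes of at least 20 CPM on average. Slc5a5 was most like Dio1 (Pearson r = 0.99), Ube2n (0.99) and Ccdc74a (0.99). Slc26a7 was most like Chmp2a (0.98), 1110065P20Rik (0.98) and Cst6 (0.98), and Kcnq1 was most like Nab1 (0.87), Cgnl1 (0.82) and Atf4 (0.81). Over 13 labels of RW cells, the closest to Slc5a5 were Hmgcll1 (0.97), Epb41l4b (0.96) and Cd164l2 (0.95), and to Slc26a7 Pls1 (0.97), Pdzk1ip1 (0.96) and Ddo (0.96). Kcnq1 was closest to the endothelial genes Esm1 (0.93) and Emcn (0.92) and to Sh3d21 (0.91). For Slc26a4, with 7 UMIs, and Kcne2, with 0, no such genes are named.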

How the data were processed

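The authors deposited 1 table of raw UMI counts per gene and cell and 1 annotation table with each cell's sample, label and topic weights. Cell Ranger and GRCm38 are named in the submitters' processing notes, and libraries were made with the 10x 3′ kit, version 2, per the labels. How the cells were labelled is not given in the sources used here. In 2619 annotation lines a comma in the treatment name had shifted the columns, which was corrected on reading. Topic weights are the authors' deposited fraction values and serve only the closing observations.

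Counts were summed per sample and label. Sums were fitted with edgeR 4.0.16 (R 4.3.3) over all 9 samples with filterByExpr, TMM and the quasi-likelihood test. Labels besides Th1 needed at least 20 cells in 2 or more samples of both groups. Alternatives covered scaling, filter, DESeq2 1.42.0, samples left out, number ranges, Th3, depth of cells and, chosen after seeing the data, endothelial RNA and samples left out in other labels. The fits were tested on simulated data. No doublet caller was run, and whether the authors removed doublets is not given in the sources used here. Thinned shares were computed from the hypergeometric formula. Intervals and limits from 3 counts cover counting error only. The labels do not say that pools were processed separately, so p-values measure the spread between these samples. Replicate numbers come from the titles, except RW 3 and aJ1aJ2 1, whose titles carry none.

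The 5 genes and the partner lists were chosen with earlier results of these data known. Named were all members, up to 4 called genes per list by size of change (all where 5 or fewer were called), Tg, and the 3 genes most like each member. Further genes of the Vip subset, single markers and the sodium pump genes that were not called were named after their values were seen. Of the sodium pump and Schwann cell lists, 1 gene each is not reported here and was left out of the lists' values.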

Additional observations from a re-analysis of the deposited data

How the results depend on the processing

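In aN1aN2 against RW and against aJ1aJ2, the calls of Slc5a5 and Slc26a7 were kept under every alternative. In aJ1aJ2 against RW, 65 genes were called in all, 424 with no filter, 104 with DESeq2, 26 with only the 2 groups, 30 with Th3 added, 140 in cells with no endothelial marker UMI, 135 with the range as a term, 649 within range B and 1 to 530 with a sample left out. In aN1aN2 against aJ1aJ2, 2374 genes were called, and 1548 to 2205 with a sample left out. The cause of these shifts was not tested. Of the partner genes called in aN1aN2 against RW, 15 of 26 were called under every alternative, and 11 of 15 against aJ1aJ2.

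Signs near 0 turned. With a sample left out, Slc26a7 in aJ1aJ2 against RW ranged from -0.0824 (without aJ1aJ2 1) to 0.0593 (without RW 1). Kcnq1 ranged from -0.59 (without aN1aN2 1) to 0.56 (without aN1aN2 2) in aN1aN2 against RW and from -0.25 to 0.91 (the same samples) against aJ1aJ2. In EC1, Kcnq1 in aN1aN2 against aJ1aJ2 ranged from -0.14 (without aJ1aJ2 4) to 0.0387 (without aN1aN2 1). The Slc26a7 share of aJ1aJ2 minus RW was -0.570 percentage points after thinning to 8000 UMIs and -0.197 unthinned. The Kcnq1 share of aN1aN2 minus RW was 1.96 points at 8000 UMIs, and aN1aN2 minus aJ1aJ2 was -1.11 unthinned.

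RW 1 and 2 and aN1aN2 1 and 2 share only a number: their deviations correlated at 0.02 and -0.01 (same number). With a replicate block over these 4 samples, 3524 genes were called, against 3370 in the same samples unpaired. Under the block, Slc5a5 was -3.96, Slc26a7 -0.94 and Kcnq1 -0.0513 (unpaired -0.14), and no member call changed. Depth limits Slc26a4, Kcne2 and Kcnq1: 109 Kcnq1 UMIs over 1169 Th1 cells cannot resolve small changes.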

Other observations

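The authors' topic weights divide Th1 cells further, and the leading topic differed between groups: topic 1 led in 366 RW and 257 aJ1aJ2 cells, and topic 2 in 279 aN1aN2 and 40 aJ1aJ2 cells. How the topics were made is not given in the sources used here and no test was made. Within topic 1, Slc5a5 was at 244 CPM in RW and 107 CPM in aJ1aJ2. Within topic 4, it was at 131 CPM in RW (21 cells, 20 Slc5a5 UMIs) and 133 CPM in aJ1aJ2 (46 cells, 33 UMIs). Within topic 3, it was at 175 CPM in RW (23 cells, 54 UMIs), 183 CPM in aJ1aJ2 (37 cells, 76 UMIs) and 36.9 CPM in aN1aN2 (58 cells, 14 UMIs). Slc26a7 in topic 3 was at 820, 809 and 485 CPM. Within topic 2, Slc5a5 was at 67.5 CPM in aJ1aJ2 (cells of 2 samples) and 13.6 CPM in aN1aN2. All these levels are pooled over samples and carry no spread.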
